A study of Mus musculus with 6 samples.

Results

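The genes described here are 8 genes of sterol and fatty acid synthesis and of its control, *Hmgcs1*, *Sqle*, *Insig1*, *Srebf1*, *Srebf2*, *Fdps*, *Fasn* and *Scd2*, measured in cultured squamous cell carcinoma cells (SCCc) of the mouse. They were chosen by name, and each of the 8 was found in a row of its own among the 23698 rows of the count tables, with none in a row that joins several gene names. The cells are primary keratinocytes from P0 back skin that carry Hras G12V and a deletion of floxed Tgfbr2 (Tgfbr2 fl/fl KO), and they were taken at passages 10 to 15. The series holds 1 footprint library and 2 RNA replicates of them, all from this genotype (further footprint libraries of such cells, outside the series, were not analysed here), so the values compare genes within SCCc and not SCCc with another cell. The 3 long-read samples of the series, which come from epidermal stem cells, wild-type keratinocytes and SCCc, were not analysed here.

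Cells make cholesterol from acetyl-CoA through mevalonate, farnesyl pyrophosphate and squalene, and they make fatty acids from the same acetyl-CoA by way of malonyl-CoA. Both routes are controlled by the sterol regulatory element binding proteins (SREBPs), membrane-bound transcription factors that the escort protein SCAP carries from the endoplasmic reticulum to the Golgi, where proteases release the active part, and that INSIG proteins hold back when sterols are plentiful. In the epidermis these lipids serve membranes of dividing basal keratinocytes and, in differentiating layers, the water barrier.

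Footprints are the pieces of mRNA that a ribosome shields from nuclease, and their number reflects translation, while RNA-seq measures mRNA abundance. Exons received 3549555 counts from footprints and 10707930 and 14003713 counts from RNA-seq replicates 1 and 2. Levels are given as RPKM, which is the count divided by the counted length in kilobases and by the exon counts of the library in megareads, on exons for RNA and on the CDS for footprints. Translational efficiency (TE) is footprint RPKM over the mean RNA RPKM on the log2 scale, set to 0 at the median of the 9862 genes that passed the filters. These filters asked for an RNA RPKM above 1 in both replicates, a mean scaled count above 25 over the libraries and footprints on a counted CDS. All 8 genes passed. The ribosome profiling library has no replicate, so a TE carries the SD over the RNA-seq replicates (n = 2) and a 95% interval that covers counting error only. The labels do not say whether the RNA-seq replicates are separate cultures, so their spread may be technical. Among all passing genes TE had an SD of 1.46, and a percentile below gives the share of passing genes with a lower value. The measurements are of bulk cells, in which fewer cells with a transcript and less of it per cell cannot be told apart.

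The markers of basal keratinocytes were abundant in every library. The 6 genes of that list (*Krt5*, *Krt14*, *Trp63*, *Itga6*, *Itgb4* and *Col17a1*) summed to 14347 RPKM in RNA-seq replicate 1, 16466 in replicate 2 and 8667 in footprints, with *Krt5* the highest at a mean of 8724 RPKM. Of the genes that differentiated keratinocytes express, 4 of 5 were found, and their sums were 118 and 120 RPKM in RNA with *Ivl* the highest. Markers of cells known for lipid synthesis were low or absent, except for *Fabp4* of the adipocyte list. The 5 sebocyte markers summed to 0.30 and 0.43 RPKM, with *Mc5r*, *Dgat2l6* and *Plin1* at 0 counts in both RNA-seq libraries, where the 95% Poisson limit of a count of 0 is 3.69 counts. Of the 6 adipocyte markers, *Adipoq*, *Lep* and *Plin1* were at 0, *Cidec* and *Pparg* had at most 2 counts in a library, and *Fabp4* alone was present at 84.2 and 86.2 RPKM. The 7 fibroblast markers summed to 9.98 RPKM in replicate 1 and 15.6 in replicate 2, with *Col3a1* the highest, and the 4 immune markers to 3.75 and 12.0 RPKM, with *Lyz2* the highest and *Cd3e* at 0. The 4 melanocyte markers summed to 5.38 and 5.47 RPKM, with *Pmel* the highest, and the 3 endothelial markers to 0.51 and 0.59 RPKM, with *Kdr* the highest. The sums of fibroblast and immune markers were thus higher in RNA-seq replicate 2, although *Dcn* (1.25 and 1.03 RPKM) and *Pdgfrb* (0.05 and 0.04 RPKM) were lower there. The part of these markers in the differences between the replicates was not tested.

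Among the 8 genes, the factors that control the pathway had lower translational efficiencies than most of the enzymes. *Srebf2* and *Srebf1* lay below the median of all genes (above it, at 0.02 and 0.34, when counts were not divided by length, and for *Srebf1* at 0.18 with footprints over exons), *Sqle* and *Insig1* above it by less than 1 on the log2 scale, and *Fasn*, *Scd2*, *Hmgcs1* and *Fdps* higher still. The median TE of the 8 genes was 0.76, with 0.79 against RNA-seq replicate 1 alone and 0.72 against replicate 2 alone. It was 0.36 when each library had to hold 100 counts or more of a gene, 0.50 without division by length and 1.01 with RNA over the CDS. Of the 8 genes, 3 (*Fdps*, *Hmgcs1* and *Scd2*) had a TE above 1 and 0 had a TE below -1, beside 20.7% of all 9862 genes above 1 and 21.1% below -1. With the limit of 100 counts only *Fdps* stayed above 1 (*Hmgcs1* at 0.79 and *Scd2* at 0.78), beside 18.8% of all genes. As a share of the 8 genes this lay below that of all genes. With footprints over exons *Hmgcs1* was at 0.99 and *Scd2* at -0.54, and 17.9% of all genes were above 1. The genes were also abundant as mRNA, with a median of 63.6 RPKM, against 15.3 RPKM over all passing genes, and their median footprint level was 81.6 RPKM, against 19.1 RPKM.

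**Figure D1:**
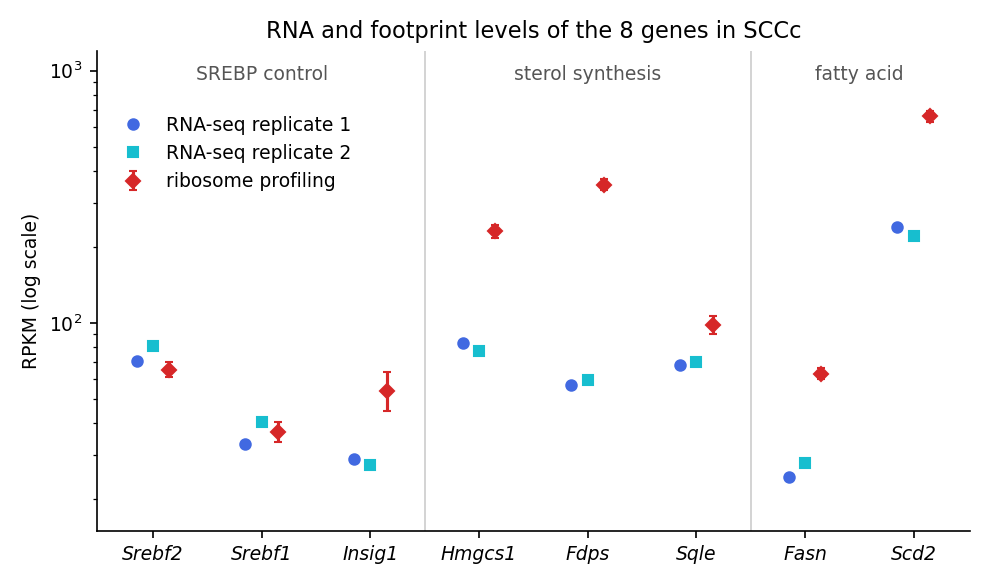
RPKM of the 8 genes in SCCc on a log axis, on exons in RNA-seq replicates 1 and 2 (circles and squares) and on the CDS in ribosome profiling (diamonds, with the exact Poisson 95% interval of the footprint count). Footprints stand furthest above RNA for *Fdps*, at 352 against 56.9 and 59.1 RPKM, while those of *Srebf1*, at 36.9 RPKM, lie between its RNA replicates and those of *Srebf2*, at 65.3 RPKM, below both.

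*Srebf2* encodes SREBP2, the transcription factor that mainly drives cholesterol synthesis genes. Its RNA was at 70.8 RPKM in replicate 1 and 81.0 RPKM in replicate 2, and its CDS of 3390 counted nt held 785.5 footprints (95% interval 732 to 842), or 65.3 RPKM. Its TE of -0.56 ± 0.15 (SD, n = 2; 95% counting interval -0.67 to -0.45) was the lowest of the 8 genes, except without division by length and with footprints over exons, where *Scd2* was lower. Its RNA lay at percentile 90.1. *Srebf1*, whose products SREBP1a and SREBP1c act mainly on fatty acid genes, had 33.1 and 40.3 RPKM of RNA and 446 footprints (406 to 489), or 36.9 RPKM. Its TE was -0.33 ± 0.21 (-0.47 to -0.19). Both factors were thus translated less than the median gene relative to their RNA, except without division by length and, for *Srebf1*, with footprints over exons. Both had more RNA in replicate 2 than in replicate 1, by a log2 ratio of 0.19 for *Srebf2* and 0.29 for *Srebf1*. In TE, the difference between *Srebf1* and *Srebf2*, 0.23, was larger than its 95% counting error of 0.18, and their order was the same against either RNA-seq replicate, but it was smaller than the sum of their SDs over the replicates.

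*Insig1* encodes the endoplasmic reticulum protein that retains SCAP, and it is itself a target of SREBPs. It had 28.8 and 27.4 RPKM of RNA and 125 footprints (104 to 149) on 656 counted nt of its CDS (84.4% of the annotated length), or 53.6 RPKM. Its TE was 0.59 ± 0.04 (0.32 to 0.86), above that of both factors it restrains (1.06 with RNA over the CDS and 0.20 with the limit of 100 counts), with the widest counting interval of the 8 genes because it had the fewest footprints.

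Of the enzymes of sterol synthesis, *Hmgcs1* encodes the cytosolic HMG-CoA synthase, an early enzyme of the pathway. It had 83.2 and 77.0 RPKM of RNA and 1276 footprints (1207 to 1348), or 230.5 RPKM. This gave a TE of 1.18 ± 0.07 (1.10 to 1.27), at percentile 83.0. *Fdps* encodes farnesyl pyrophosphate synthase, whose product is the last that sterols share with prenylated proteins and dolichol. Its RNA, at 56.9 and 59.1 RPKM, was lower than that of *Hmgcs1* in both replicates, but its 1549 footprints (1473 to 1628) on 1238 nt gave 352 RPKM. Its TE of 2.26 ± 0.05 (2.17 to 2.36) was the highest of the 8 genes, at percentile 95.1 of all passing genes, and stood 1.08 above that of *Hmgcs1*, the next in order. *Sqle* encodes squalene epoxidase, the first oxygen-dependent step toward sterols and a rate-limiting one. With 68.1 and 70.2 RPKM of RNA it was more abundant than *Fdps*, yet it had 597 footprints (550 to 646) on 1716 nt, or 98.0 RPKM. Its TE was 0.16 ± 0.04 (0.04 to 0.28), at percentile 55.7 (-0.23 when each library had to hold 100 counts or more of a gene, 0.49 without division by length and 0.84 with footprints over exons), so these enzymes of the same pathway, with RNA levels of 58.0 and 69.1 RPKM on average, stood far apart in TE. For *Hmgcs1*, 547 nt of the CDS lie opposite the antisense gene *Gm48342*, and for *Fdps*, 1124 nt are shared with *Gm43738* on the same strand, so some reads of these genes are uncertain.

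The remaining genes make and modify fatty acids. *Fasn* encodes fatty acid synthase, the large enzyme that builds palmitate. Its RNA, at 24.5 and 27.9 RPKM, was about as low as that of *Insig1*, while its CDS of 7512 nt held the most footprints, 1678 (1598 to 1760), or 62.9 RPKM. This count did not differ from the 1660 of *Scd2* beyond the counting error. The TE of *Fasn* was 0.92 ± 0.14 (0.84 to 1.00), which put it just under the limit of 1, and against RNA-seq replicate 1 alone it was 1.02. It was 1.53 without division by length, 1.35 with footprints over exons and 0.53 with the limit of 100 counts. *Scd2* encodes a stearoyl-CoA desaturase, which introduces a double bond into saturated fatty acids. It had the highest RNA level, at 239.8 and 221 RPKM, and the highest footprint level, at 660 RPKM from 1660 footprints (1582 to 1742), with a TE of 1.18 ± 0.07 (1.10 to 1.25). For *Scd2* only 709 of the 1075 annotated nt of CDS (66.0%) were counted, and its TE depended on the region used, with -0.54 when footprints were counted over exons and -0.64 when counts were not divided by length, since its exons include a 3′UTR of 3606 counted nt.

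The order of the 8 genes by RNA was *Scd2*, *Hmgcs1*, *Srebf2*, *Sqle*, *Fdps*, *Srebf1*, *Insig1* and *Fasn*. Within it, *Hmgcs1* and *Srebf2*, *Srebf2* and *Sqle*, and *Insig1* and *Fasn* differed by less than the sum of their SDs. By footprint level the order was *Scd2*, *Fdps*, *Hmgcs1*, *Sqle*, *Srebf2*, *Fasn*, *Insig1* and *Srebf1*, and *Srebf2*, *Fasn* and *Insig1* did not differ from their neighbours in this group beyond the counting error. By TE, *Hmgcs1* and *Scd2* differed by 0.01, within a counting error of 0.11. Against RNA-seq replicate 1 alone, *Scd2* (1.12) and *Fasn* (1.02) did not differ beyond their counting error of 0.11 either. Between the RNA-seq replicates these genes differed about as much as all passing genes did. The largest log2 ratio was 0.29, for *Srebf1*. The median absolute log2 ratio of the replicates was 0.11 for the 8 genes and 0.13 for all passing genes, and 5 of the 8 genes were higher in replicate 2.

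The genes nearest to each of the 8 were found by Euclidean distance in log2 RPKM over the 3 libraries, among all passing genes. For *Srebf2* they were *Tcf25* (0.09), *Plxnb2* (0.12) and *Fat1* (0.14), and for *Srebf1* they were *Map7d1* (0.06), *Yipf3* (0.07) and *Fam83h* (0.13). For *Insig1* they were *Rpia* (0.03), *Tmem199* (0.08) and *Oser1* (0.08). *Hmgcs1* lay nearest to *Bud31* (0.06), *Caprin1* (0.09) and *Arl6ip1* (0.10), *Sqle* to *Myc* (0.04), *Ppic* (0.05) and *Fh1* (0.08), and *Fdps* to *Krtdap* (0.09), *Hn1* (0.15) and *Srsf1* (0.17). *Fasn* lay nearest to *Zfp622* (0.11), *2310002J15Rik* (0.12) and *Ddx56* (0.12), and *Scd2* to *Atp5j* (0.17), *Ddx5* (0.21) and *Ybx1* (0.23). The closest of these pairs was *Insig1* and *Rpia*, and among the 8 genes themselves the closest pair was *Insig1* and *Fasn*, at 0.33. None of the 8 was thus among the 3 nearest genes of another.

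Taken as a share of each library, the 8 genes held 0.249% of the footprints on exons (Wilson 95% interval 0.244% to 0.255%), 0.250% of the exon counts of RNA-seq replicate 1 (0.247% to 0.253%) and 0.250% of those of replicate 2 (0.247% to 0.253%). *Scd2* alone made up 48.3% and 44.5% of their RNA counts. On CDS counts only, where the long 3′UTR of *Scd2* does not enter, the shares were 0.254% of footprints and 0.176% and 0.187% of RNA, so the 8 genes then held a larger part of the footprints than of the RNA.

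The enzymes of sterol synthesis were examined as a list of 22 genes, which holds *Hmgcs1*, *Fdps* and *Sqle*, and 21 of them passed the filters. Their median TE was 1.19, and 12 of the 21 were above 1 and 0 below -1, beside the 20.7% and 21.1% of all genes. The 12 fell to 8 when each library had to hold 100 counts or more of a gene, beside 18.8% of all genes. That setting leaves out genes of the list, so the 8 are of fewer than 21 genes. Without the 3 genes already described the median of the other 18 was 1.29. The highest values were those of *Idi1* (3.06), *Hsd17b7* (2.39) and *Fdps*, of which *Idi1*, the isopentenyl diphosphate isomerase, had 24.1% of its CDS counted and 35.9 footprints. *Lbr*, *Fdft1*, *Cyp51*, *Ebp*, *Dhcr7*, *Pmvk*, *Acat2* and *Hmgcs1* were also above 1, from 2.05 for *Lbr* to 1.18 for *Hmgcs1*. The lowest were *Mvk* (-0.64) and *Mvd* (-0.50), which encode mevalonate kinase and the decarboxylase that makes isopentenyl pyrophosphate. *Msmo1* had the most RNA (232 and 210 RPKM) with a TE of 0.80, and *Hmgcs1*, *Sqle* and *Fdps* were also among the most abundant. *Tm7sf2*, with 3.94 footprints, did not pass.

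**Figure D2:**
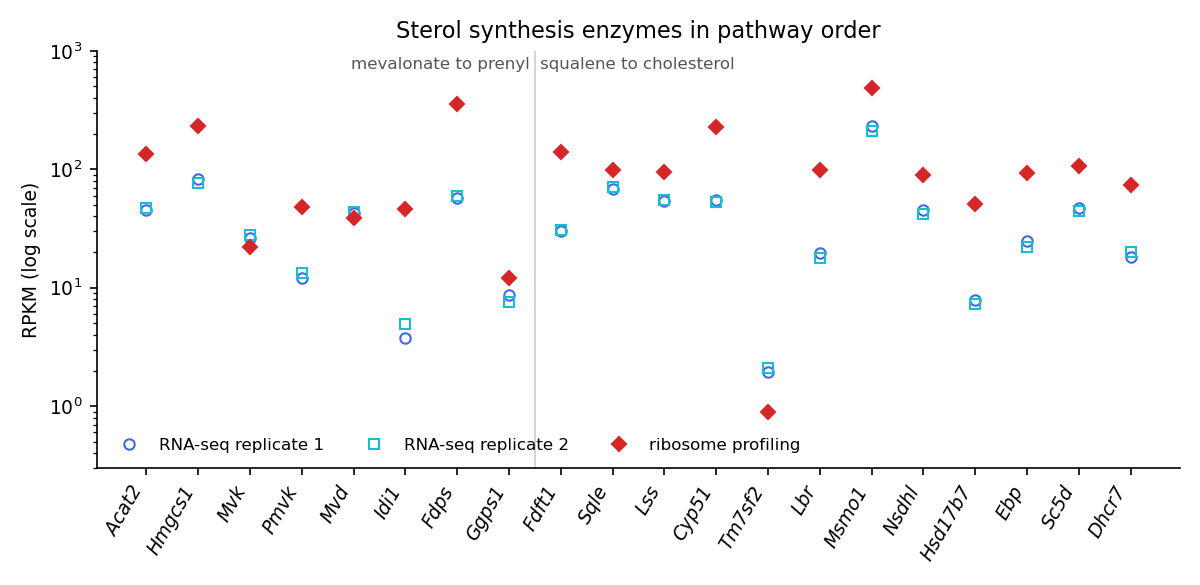
RPKM of 20 of the sterol synthesis enzymes on a log axis, in the order of the pathway, on exons in the RNA-seq replicates (open circles and squares) and on the CDS in ribosome profiling (diamonds). Footprints lie above both RNA values for most genes, and below them for *Mvk*, *Mvd* and *Tm7sf2*. These RPKM are not centred on the median of all genes, so footprints above RNA are not particular to these enzymes. For scale, *Srebf1*, with footprints at 36.9 RPKM and a mean RNA of 36.7 RPKM, has a TE of -0.33.

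Of the 29 genes of fatty acid synthesis, elongation and desaturation, 23 passed, with a median TE of 0.92, 11 above 1 and 0 below -1, beside 20.7% and 21.1% of all genes. The 11 fell to 5 when each library had to hold 100 counts or more of a gene, beside 18.8% of all genes. It fell to 6 among genes with at least 80% of the CDS counted, beside 19.6%. Both settings leave out genes of the list, so these counts are of fewer than 23 genes. Among the enzymes that feed *Fasn*, *Acly*, the ATP citrate lyase that makes cytosolic acetyl-CoA, had 51.9 and 52.2 RPKM of RNA and a TE of 0.58 ± 0.02. *Acaca*, the carboxylase that makes malonyl-CoA, had 4.29 and 4.04 RPKM, 128 footprints and a TE of 1.42 ± 0.05, with 35.9% of its CDS counted. The genes above 1 were *Scd3* (4.52), *Scd1* (3.52), *Hacd2* (2.996), *Elovl7* (2.51), *Elovl6* (2.21), *Elovl4* (2.12), *Elovl1* (1.46), *Acaca*, *Hsd17b12* (1.24), *Scd2* and *Me1* (1.16). The lowest were *Fads1* (-0.28), *Acss2* (-0.07) and *Tecr* (-0.03), although *Tecr* (139 and 157 RPKM) and *Fads1* (105 and 110 RPKM) were among the 5 most abundant mRNAs of the list, with *Scd2*, *Hsd17b12* and *Fads3*. *Scd4*, *Acacb*, *Elovl2*, *Elovl3*, *Hacd4* and *Thrsp* did not pass, and *Elovl2* and *Thrsp* had 0 counts in every library.

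*Scd2* belongs to a family of similar copies, and reads that match several of them may be left out or placed on either copy. Aligned over the CDS, *Scd1* and *Scd2* were 89.8% identical, *Scd2* and *Scd3* 88.2% and *Scd2* and *Scd4* 82.8%. *Scd1*, the main form of sebaceous glands and liver, had 14.0 and 15.2 RPKM of RNA in SCCc and 801 footprints, or 212 RPKM. *Scd3* had 41.1 and 52.2 RNA counts and 92.5 footprints, and *Scd4* had 9.22 and 17.8 RNA counts and 47.5 footprints. *Scd2* thus held most of the RNA of the family, and the TE of each copy is uncertain to the extent that footprints were shared among them.

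The median of the control genes was lower than that of the enzymes. All 11 genes of the SREBP control list passed, with a median TE of -0.33, 0 above 1 and 2 below -1, beside 20.7% and 21.1% of all genes, so the count below -1 was near that of all genes. It was 4 without division by length, with RNA over the CDS and with footprints over exons, beside 21.1%, 19.5% and 19.5% of all genes. Under these settings the share of the list was thus larger than that of all genes. The median was -0.73 with the limit of 100 counts. Without *Srebf1*, *Srebf2* and *Insig1* the median was -0.44. The lowest were *Mbtps1* (-2.25 ± 0.09), which encodes the first of the proteases that cleave SREBPs, and *Scap* (-2.23 ± 0.13), which encodes their escort. *Scap* had 96.9 and 109 RPKM of RNA, the most of the list and more than *Srebf2*, and 378 footprints on 3828 nt, or 27.9 RPKM. An antisense gene, *5830462I19Rik*, shares 785 nt of its CDS, and whether the counting used strand is not given in the sources used here. *Insig1* (0.59) and *Mbtps2* (0.56) were the highest, and *Insig2*, the second retention protein, was at -0.68 ± 0.15 with 27.8 footprints. *Rnf145*, a ubiquitin ligase of the pathway, was at -0.84. *Mbtps1* had 33.3 and 35.8 RPKM of RNA, close to *Srebf1*. The list took 0.147% and 0.161% of the exon counts of the RNA-seq replicates but 0.077% of the footprints, whereas the sterol synthesis enzymes took 0.265% and 0.262% of the RNA and 0.364% of the footprints.

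Of the 12 genes of sterol uptake, storage and export, 8 passed, with a median TE of 0.83, 3 above 1 and 1 below -1, beside 20.7% and 21.1% of all genes. The median was 0.21 with footprints over exons, 0.28 without division by length and 0.45 with RNA over the CDS, and the count below -1 ranged from 0 to 2 over the alternatives. Those above 1 included *Soat1* (2.63), which esterifies cholesterol for storage, and *Stard4* (1.70), a sterol carrier. *Nr1h2*, which encodes the sterol sensor LXRβ, was the lowest at -2.54 ± 0.31, with 52.6 footprints and 43.2 and 58.1 RPKM of RNA, followed by *Npc1* (-0.58) and *Lipa* (-0.16). *Npc2*, *Nr1h2* and *Stard4* had the most RNA, led by *Npc2* at 101 and 106 RPKM. *Abca1*, *Abcg1*, *Mylip* and *Nr1h3* did not pass. The storage enzyme and the carrier thus had higher values than the nuclear sensor in the same cells.

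**Figure D3:**
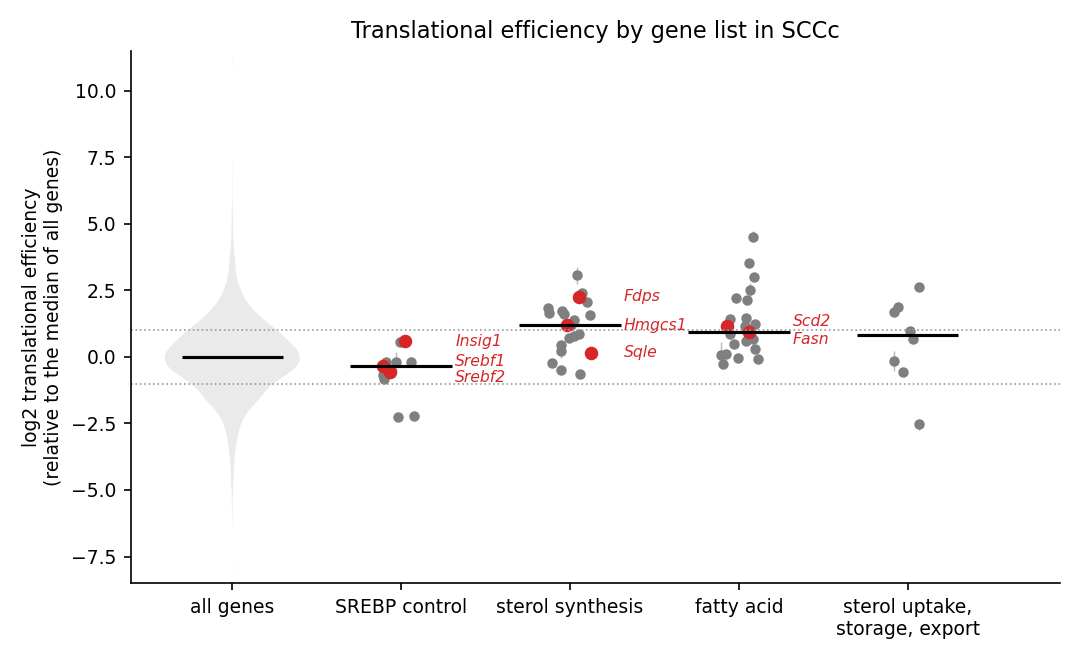
Log2 TE of the genes of each list that passed the filters, with the distribution of all 9862 genes at the left, black bars for medians, red points for the 8 genes, grey bars for the counting error (1 SE) and dotted lines at 1 and -1. The sterol synthesis and fatty acid lists have medians of 1.19 and 0.92, and the SREBP control list has a median of -0.33.

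By GENCODE M21 the genes lie at chr15:82147181-82205379 (*Srebf2*), chr11:60199089-60222581 (*Srebf1*), chr5:28071363-28078662 (*Insig1*), chr13:119690379-119708260 (*Hmgcs1*), chr3:89093588-89101959 (*Fdps*), chr15:59315077-59331192 (*Sqle*), chr11:120805846-120824547 (*Fasn*) and chr19:44293674-44306864 (*Scd2*) of GRCm38. The translation start sites of the 8 genes are given because the series concerns how 5′UTR sequence relates to translation. Each line gives 20 nt of the principal transcript of GENCODE M21 (GRCm38) around the annotated start codon, which is in capitals, with the position of that codon.
Srebf2: aagctgggcgATGgatgaga, chr15:82147403-82147405, + strand
Srebf1: cgccggcgccATGgacgagc, chr11:60220541-60220543, - strand
Insig1: ctggacgccgATGcccaggc, chr5:28071438-28071440, + strand
Hmgcs1: ctctttcaccATGcctgggt, chr13:119699674-119699676, + strand
Fdps: ctctgtcagaATGaatggga, chr3:89100807-89100809, - strand
Sqle: cttttgagccATGtggactt, chr15:59315845-59315847, + strand
Fasn: gagaagagccATGgaggagg, chr11:120822841-120822843, - strand
Scd2: cgacgccaagATGccggccc, chr19:44294388-44294390, + strand
A purine stands 3 nt before the start codon in 7 of the 8 genes (87.5%, and 87.3% of 9288 passing genes with a principal transcript), with *Insig1* the exception, and a G follows the codon in 3 of them (37.5%, against 54.4%). None of the 8 annotated 5′ ends begins with a 5′TOP motif, a C followed by at least 4 pyrimidines, which 2.21% of the passing genes have. A PRTE, a run of 9 pyrimidines with T at position 6, lies in the 5′UTR of *Hmgcs1*, *Sqle* and *Scd2* (37.5%, against 30.6% of the passing genes). The annotated end may differ from the start sites used in SCCc, which were not analysed here.

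Footprints on the 5′UTR could be compared with the CDS for *Sqle* and *Scd2*. The 5′UTR of *Sqle* held 261 footprints (230 to 295) on 753 counted nt, or 34.7 per 100 nt, against 34.8 per 100 nt on the CDS, so that the log2 ratio of the densities was -0.00. This lay at percentile 75.1 of the 1089 genes with at least 60 counted nt of 5′UTR, 30 footprints on it and 10 on the CDS, whose median was -0.997. In 24.6% of these genes the 5′UTR was the denser region, and 0 of the 2 members of the 8 that could be compared were among them. The other was *Scd2*, with 301 footprints on 712 nt of 5′UTR, or 42.3 per 100 nt, against 234 per 100 nt on its CDS, a log2 ratio of -2.47. In RNA-seq the 5′UTR of *Sqle* was covered at a log2 ratio to the CDS of -0.52 in replicate 1 and -0.45 in replicate 2, and that of *Scd2* at -1.67 and -1.60. The footprints on the 5′UTR of *Sqle* were thus as dense as on its CDS, while those of *Scd2* were sparser than on its CDS by more than its RNA.

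The other 6 genes had fewer than 30 footprints on the 5′UTR. *Hmgcs1* had 22.7 on 232 nt, *Fdps* 14.8 on 143 nt, *Srebf2* 13.1 on 134 nt, *Fasn* 5.40 on 527 nt, *Insig1* 4.09 on 11 nt and *Srebf1* 2.47 on 61 nt. On *Fasn* and *Fdps*, both with many footprints on the CDS, the 5′UTR held few. For *Fdps* the counted regions differ from the transcript whose start codon is shown. That transcript has 265 nt of 5′UTR and 1059 nt of CDS without the stop codon, against 143 nt and 1238 nt counted. The 3′UTR held between 1.69 footprints on *Fasn* and 61.4 on *Scd2*. The log2 ratio of its density to that of the CDS had a median of -5.36 over all passing genes with footprints on both, and *Fdps* (-3.42), *Insig1* (-4.06), *Srebf1* (-4.46) and *Srebf2* (-4.67) lay above it. On *Fdps* the 58 nt of 3′UTR held 11.7 footprints per 100 nt, against 10.3 on its 5′UTR.

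An ATG precedes the annotated start in 6 of the 8 genes (75.0%, and 51.2% of the passing genes). Their annotated 5′UTRs were also longer, with a median of 243.5 nt against 179 nt, and the shares were not adjusted for length. The 5′UTR of *Sqle* has 4, each followed by a stop codon before the start of the CDS, after 13, 19, 9 and 8 codons in the order of their position. They are shown with the ATG in capitals and its distance to the start codon in nt because this gene had about equal footprint density on the 5′UTR and the CDS.
Sqle ATG at -708: tccgcgagggATGctgggga, chr15:59315137-59315139, + strand
Sqle ATG at -305: agttggctgaATGaagaagt, chr15:59315540-59315542, + strand
Sqle ATG at -259: caggctttaaATGctgcctt, chr15:59315586-59315588, + strand
Sqle ATG at -211: tgcactctcaATGatttcaa, chr15:59315634-59315636, + strand
*Scd2* has 8 such ATGs and *Fasn* 4. Upstream ATGs number 3 in *Fdps*, of which 1 is in frame with the CDS, 2 in *Srebf2* and 1 in *Insig1*, and *Hmgcs1* and *Srebf1* have 0. The counts are per region, so the position of footprints within a 5′UTR was not measured.

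Among the genes of the lists with enough footprints to compare, 11 in all, the 2 with the higher density on the 5′UTR were *Scap* and *Nr1h2*, a share no higher than the 24.6% of all genes. *Scap* had 126.5 footprints on 309 nt of 5′UTR, or 40.9 per 100 nt, against 9.89 per 100 nt on the CDS, a log2 ratio of 2.05 at percentile 98.7. *Nr1h2* had 41.1 footprints on 312 nt and a log2 ratio of 1.75 at percentile 97.3. Both ratios divide by CDS footprints, which are also the numerator of TE, so the low TE of these genes is not a separate observation. The 5′UTR of *Scap* has 4 upstream ATGs, each with a stop codon before the CDS, and does not overlap the antisense gene.
Scap ATG at -87: gtgcctgcagATGatgtctg, chr9:110352956-110352958, + strand
Scap ATG at -84: cctgcagatgATGtctgctg, chr9:110352959-110352961, + strand
Scap ATG at -42: gggctgatccATGgtcactt, chr9:110353001-110353003, + strand
Scap ATG at -26: actttccgggATGgcaacaa, chr9:110353017-110353019, + strand
Scap start codon: ttagccgaggATGaccctga, chr9:110353043-110353045, + strand
Whether these upstream frames are translated was not tested.

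**Figure D4:**
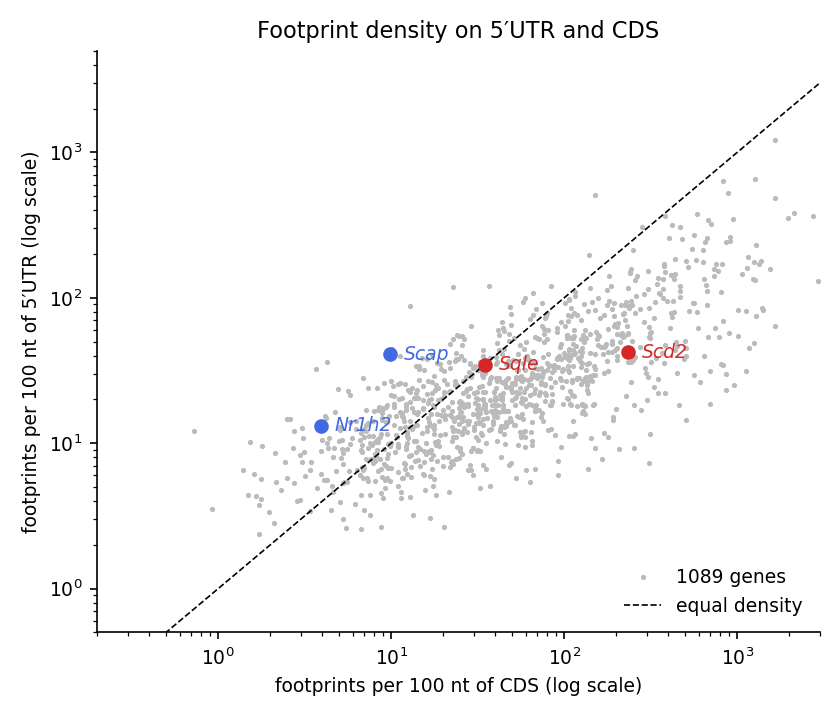
Footprints per 100 nt on the 5′UTR against the CDS, both on log axes, for the 1089 genes with enough footprints on both (grey), with a dashed line of equal density. *Sqle* lies on the line, *Scd2* below it, and *Scap* and *Nr1h2* above it.

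Promoter windows of 250 nt before to 50 nt after the start of the gene were taken from RefSeq (GRCm38.p6), which held 5 of the 8 genes, *Hmgcs1*, *Insig1*, *Srebf1* (3 windows), *Srebf2* and *Fasn*. *Sqle*, *Fdps* and *Scd2* were not matched. Each of 4 motifs was searched on both strands. TCACNCCAC, a form of the sterol regulatory element, was found in 1.24% of all 32851 windows and in 1 of the 5 genes, *Hmgcs1*. It starts at -137 nt from the annotated start of the gene on the + strand and is shown in capitals with 9 nt on each side.
Hmgcs1: gtcaccgtcTCACCCCACttcccaggt, chr13:119690205-119690231, + strand
The shares of all windows are per window and the counts per gene, of which *Srebf1* has 3 windows, with CCAAT in 2 of them. CCAAT, the box that NF-Y binds, was found in all 5 genes and in 37.4% of all windows, most often in *Hmgcs1*, with 4 copies. GGGCGG, which Sp1 binds, was in 4 of the 5 genes, all but *Fasn*, and in 35.7% of all windows. CACGTG, an E-box, was in *Insig1* alone and in 7.15% of all windows. Of the 3 copies of CCAAT in *Fasn*, 1 is shown in the same way, together with the E-box of *Insig1*, with genome coordinates and the strand of the gene.
Fasn CCAAT: cctcggtgtCCAATtggtttcga, chr11:120824596-120824618, - strand
Insig1 E-box: gggtgaggtCACGTGgctccggtg, chr5:28071302-28071325, + strand
Of the 22 sterol synthesis genes, 17 had a window, of which 16 held CCAAT, 15 GGGCGG, 3 CACGTG and 1 TCACNCCAC. CCAAT was in 14 of 25 fatty acid genes with a window, 4 of 8 SREBP control genes and 4 of 7 uptake genes, and TCACNCCAC in 0 of these. GGGCGG was in 17, 7 and 5 of them and CACGTG in 4, 3 and 1. A match of these letters describes the sequence only, and binding was not measured.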

How the data were processed

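The values used are estimated counts per gene and region, which the authors made with Plastid 0.4.7 from reads trimmed with Trim Galore and aligned to GRCm38 with STAR 2.6.1, after removing ribosomal, mitochondrial and tRNA reads from the ribosome profiling library with Bowtie2 2.4.1. The deposited RPKM values, which the authors divided by region length and by a library total larger than the sum of the exon counts, were used only as an alternative. The annotation release, masked positions and strand of that counting are not given in the sources used here.

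RPKM was recomputed from the counts, counted lengths and exon totals. TE was centred on the median of the passing genes. Work used Python 3.11.15, numpy 2.4.6, pandas 2.3.3, scipy 1.17.1, matplotlib 3.10.9 and Biopython 1.88, and R 4.3.3 with DESeq2 1.42.0 and edgeR 4.0.16, for whose factors the counts were rounded to whole numbers. The calculation was tested on simulated data. No interaction could be tested with 1 ribosome profiling library and 1 group.

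Named genes are the 8 members, their 3 nearest genes each, and from each list the genes with TE above 1 or below -1, the 3 highest and lowest, the 5 with the most RNA, those with the denser 5′UTR, those that did not pass, and *Scd1*, *Acaca*, *Acly*, *Insig2* and *Scap*. The members and lists were chosen with earlier results of these data known. The alternatives were leaving out each RNA-seq replicate, a pseudocount, no division by length, other regions, other filters, the deposited RPKM, DESeq2 and TMM factors and other 5′UTR limits. Those on genes with at least 80% of the CDS counted, without the members and without the *Scd* copies were added after seeing the data. *Hacd1*, *Hacd2*, *Hacd3* and *Hacd4* were found under the names *Ptpla*, *Ptplb*, *Ptplad1* and *Ptplad2*. 1 marker of differentiated keratinocytes, *Flg*, was not found by name. Some genes that the rule names are not reported here.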

Additional observations from a re-analysis of the deposited data

How the results depend on the processing

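With either RNA-seq replicate left out, the median TE of the 8 genes ranged from 0.72 to 0.79, the number above 1 from 3 to 4 (*Fasn* at 1.02 without replicate 2), and the medians of the sterol synthesis, fatty acid, SREBP control and uptake lists from 1.22 to 1.23, 0.89 to 1.02, -0.48 to -0.33 and 0.75 to 0.90. Over the alternatives, TE ranged from 1.87 to 3.03 for *Fdps*, 0.79 to 1.26 for *Hmgcs1*, 0.53 to 1.53 for *Fasn*, 0.20 to 1.06 for *Insig1*, -0.23 to 0.84 for *Sqle*, -0.73 to 0.34 for *Srebf1* and -0.95 to 0.02 for *Srebf2*.

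Without division by length *Scd2* fell to -0.64, the median of the 8 genes to 0.50 and that of uptake genes to 0.28, with 4 SREBP control genes and 2 uptake genes below -1. With footprints over exons *Scd2* was at -0.54, and the medians were 0.65 for the 8 genes, 1.06 for sterol synthesis and 0.21 for uptake, with 4 control genes and 2 uptake genes below -1. The 3′UTR of *Scd2* holds most of its RNA counts and few of its footprints, and its RNA counts enter the main TE too. There the RNA is divided by 5027 counted nt of exons and the footprints by 709 nt of CDS. Without division by length neither is divided, and with footprints over exons both are divided by the exons. The cause of the other shifts was not tested. With RNA over the CDS the medians were 1.01 for the 8 genes, 1.03 for fatty acid genes and 0.45 for uptake genes, with 1 control gene above 1 and 4 below -1, and the median RNA of the 8 genes was 71.9 RPKM.

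When each library had to hold 100 counts or more of a gene, the median of the kept genes lay 0.39 higher, so the TE of each of the 8 genes fell by as much. The medians were then 0.36 for the 8 genes (1 above 1), 0.89 for sterol synthesis, 0.51 for fatty acid genes (5 above 1), -0.73 for control genes and 0.94 for uptake genes (0 below -1), the last of fewer genes. With no filter but a count above 0, uptake genes had a median of 0.66 with 2 below -1, and 1 sterol synthesis gene was below -1, and with the filter on the deposited RPKM the uptake median was 0.96. With at least 80% of the CDS counted the medians were 0.65 for the 7 of the 8 genes that remain without *Scd2* and 1.24 for sterol synthesis, with 6 fatty acid genes above 1, and without the members sterol synthesis was at 1.29. Both settings leave out genes.

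The median RNA of the 8 genes, 63.6 RPKM, was 47.2 with DESeq2 factors, 57.8 with TMM factors and 13.5 as deposited RPKM, which differ in the library total they divide by. Their share of CDS counts was 0.176% and 0.187% in RNA-seq. Genes with the denser 5′UTR numbered 416 of 1650 with a limit of 20 footprints and 103 of 484 with 60, as the limit changes the number compared. Of the values under the alternatives, 170 summaries and 88 other values changed by less than the spread between replicates (for shares of a library, the counting interval) or, for counts, by at most 1.5 times, while 38 summaries and 69 other values changed by more, among them *Srebf1*, *Srebf2* and *Sqle* with a change of sign, and the 2 values of *Scd2* reversed. These numbers do not measure robustness. The spread of a TE or RNA level was itself taken from the values with a replicate left out, so those could not exceed it. For TE, DESeq2 and TMM factors rescale whole libraries, which the centring on the median largely removes.

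No paired analysis was possible because the labels do not pair the ribosome profiling library with an RNA-seq library. The single ribosome profiling library limits every TE to counting error on the footprint side, and many of the listed genes, extreme values such as *Idi1*, *Elovl7*, *Scd3*, *Hacd2*, *Mbtps1* and *Nr1h2* among them, rest on fewer footprints than the 125 of *Insig1*. RNA-seq varied between replicates by 7.52 times the counting variance. The similar *Scd* copies and overlapping genes leave some reads uncertain.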
